A study of Tachysurus vachellii and Tachysurus fulvidraco x Tachysurus vachelli and Tachysurus fulvidraco with 9 samples.

Results

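Liver RNA of a hybrid catfish held 111 annotated transcripts that stood below both parental species at once. By known role, 22 of them belonged to ribosome biogenesis with RNA polymerase I, and 13 to protein folding in the endoplasmic reticulum (ER). A further 10 belonged to ER stress control, ER degradation and vesicle transport, 13 to mitochondria, and the remaining 53 to other groups. Roles were assigned to these transcripts only, so how common each role is among the other annotated transcripts is not known. The values are TPM (a transcript level scaled for transcript length and library total) of assembled genes, here called rows. A row was a member where it carried a protein description, where both parental means were at least 5 TPM, where the highest hybrid library lay below the lowest library of either parent, and where the hybrid mean was at most 1/1.5 of the smaller parental mean (66.7% of it). The rule gave 111 of 5736 described rows at that level, or 1.94%, among 57710 rows in all, and the mirrored rule gave 62 described rows above both parents. The members were chosen by these hybrid and parental levels, so the levels are given as a description. Later counts of calls against the parents that include members are therefore no test of the members.

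Livers of juvenile fish gave 9 poly(A) RNA libraries, 3 from each line. The hybrid Huangyou-1 had P. fulvidraco as mothers and P. vachelli as fathers, and the parental lines were Pelteobagrus vachelli (darkbarbel catfish) and P. fulvidraco (yellow catfish), each bred within its species after hormone injection. All lines were incubated at 28 °C and fed Artemia and then compound feed, and each line had its own 3 aquaria of 700 L with 200 fish each, so line and aquaria cannot be told apart. It is not stated if each library is a single fish or pooled fish, so p-values measure only the spread between these libraries, which may be technical. No drug, diet or gene was varied between the lines.

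The ER folds proteins that a cell secretes. Its chaperones and disulfide isomerases are controlled together by the unfolded protein response, in which sensors in the ER membrane act through factors such as XBP1, and the liver depends on this machinery because it secretes most plasma proteins. Ribosome biogenesis takes place mainly in the nucleolus, where RNA polymerase I transcribes ribosomal RNA and small nucleolar ribonucleoproteins modify and cut it. 

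How many reads lie behind a value is unknown, since TPM carry no depth. Each library had 36107 to 41016 rows at 1 TPM or more. The members together held 2061 to 2395 TPM for the hybrid libraries, 4443 to 4635 TPM for P. vachelli and 4749 to 5524 TPM for P. fulvidraco. The tissue label is liver, while the extraction protocol speaks of an adipose type. The 17 hepatocyte markers summed to 74370 to 80680 TPM for the hybrid. Their sums were 48900 to 53340 TPM for P. vachelli and 60930 to 68330 TPM for P. fulvidraco. Of them, HPX alone averaged 24030, 4639 and 12630 TPM in that order of lines, and CPS1 1.64, 0.01 and 2.57 TPM. Limma called FABP1, HPX and TF higher in the hybrid than in both parents, and FGA, FGB and FGG lower. The 5 adipocyte markers summed to at most 40.5 TPM for the hybrid, 42.8 TPM for P. vachelli and 35.3 TPM for P. fulvidraco. Pancreatic acinar markers summed to 6178 to 8263 TPM for the hybrid, 2076 to 3774 TPM for P. vachelli and 2541 to 6470 TPM for P. fulvidraco. Macrophage markers summed to 501 to 685 TPM, 83.8 to 92.2 TPM and 838 to 987 TPM in the same order of lines. Most of the macrophage difference came from CD163, which averaged 501 TPM, 5.30 TPM and 837 TPM in that order. C1QA, another macrophage marker, averaged 50.4, 40.7 and 39.5 TPM. None of the member symbols was on a marker list (0 of 100). That count leaves out the 9 members without a symbol, among them a row described as like fibrinogen alpha chain, the protein of marker FGA. It also ignores descriptions, and the APOA4 member is described as like apolipoprotein A-I, the protein of marker APOA1. After the TPM were rescaled without the acinar symbols 109 of the 111 members still met the rule. Acinar markers held at most 8263 TPM of a library, so the rescaling could hardly change any value and does not test for admixed cells. Vitellogenin, the egg yolk precursor that female liver makes, took 5.08% of the TPM of P. fulvidraco 1 and 1.88% of P. fulvidraco 2, against 0.0055% in P. fulvidraco 3 and at most 0.000827% in each hybrid and P. vachelli library. In whole tissue, fewer cells of a type and less RNA per cell cannot be told apart.

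**Figure D1:**
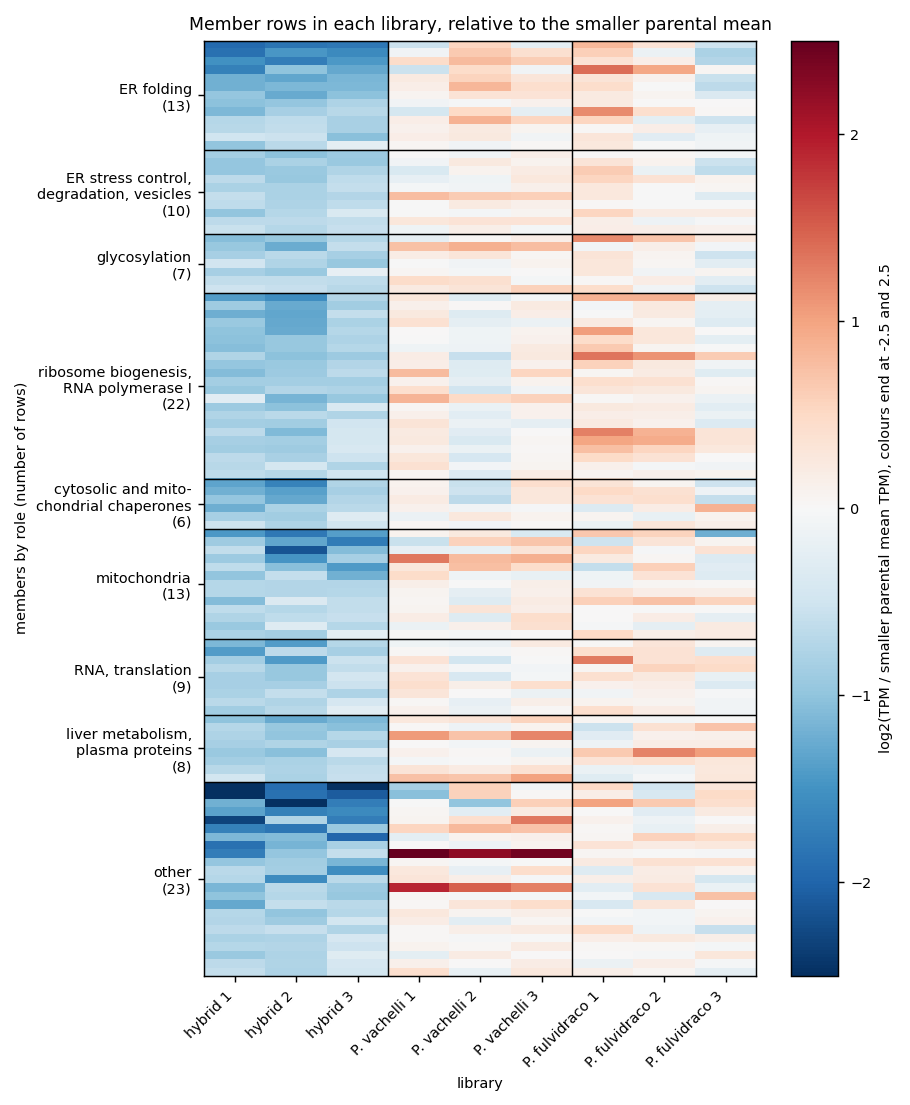
Each line of the map is 1 of the 111 member rows, grouped by role, and each column 1 library. The colour is log2 of the TPM over the smaller parental mean of that row. The 3 hybrid columns are below 0 throughout because the rule chose the rows so, while the parental columns show how the role groups differ between libraries of a line.

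Member levels covered a wide range. The smaller parental mean ran between 5.01 and 859 TPM with a median of 11.1 TPM, 47 members had less than 10 TPM and 8 had more than 100 TPM. The hybrid mean was 18.3% to 66.6% of the smaller parental mean with a median of 56.8%, and 27 members stood at 50% or less. By median the members stood at 53.3% of P. vachelli and 50.6% of P. fulvidraco. On the log2(TPM + 1) scale their median difference was -0.82 from P. vachelli and -0.82 from P. fulvidraco, against -0.09 and -0.10 over the 5736 described rows at 5 TPM or more. That scale understates the change of low rows. Limma called 95 of the 111 lower than both parents, against 3.26% of those described rows and 0.636% of all 51225 rows tested, and since the rule used this contrast nothing is read from that count.

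The 13 ER folding members were the role group with the lowest hybrid levels by median, at 47.2% of the smaller parental mean. After all rows of a symbol were summed, 12 of their 12 symbols met the rule. For a symbol with 1 row the sum is the member row itself, so it could not fail. Only DNAJC3, Dnajb9 and P4HB had more rows, and both Dnajb9 rows were members. HSPA5, the ER Hsp70 chaperone BiP, had 21.9, 34.8 and 29.0 TPM for the hybrid libraries 1 to 3, against 48.1, 96.8 and 65.8 TPM for P. vachelli and 184, 137 and 72.5 TPM for P. fulvidraco. The parental libraries were spread widely and overlapped each other, and the lowest of them stood above the highest hybrid library, as the rule required. HSP90B1, the ER Hsp90 chaperone (described from a partial endoplasmin of a duck), had 36.7, 38.9 and 38.6 TPM for the hybrid, against 94.2, 150 and 113 TPM for P. vachelli and 115, 84.0 and 53.6 TPM for P. fulvidraco. The hybrid libraries were almost level, and P. fulvidraco 3 came nearest to them.

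The co-chaperone DNAJC3, which helps BiP to bind unfolded chains, was the ER row farthest below the parents, with 3.20, 3.46 and 3.55 TPM for the hybrid, against 8.46, 17.8 and 10.6 TPM for P. vachelli and 21.6, 15.6 and 8.63 TPM for P. fulvidraco. That is 27.7% of the smaller parental mean, and 53.9% once the second DNAJC3 row is added, since the second row stood at 8.11 TPM for the hybrid, 9.08 TPM for P. vachelli and 16.7 TPM for P. fulvidraco on average. MANF, a stress protein that is kept in the ER and can be secreted, had 6.68, 5.76 and 7.03 TPM for the hybrid, against 26.0, 32.9 and 29.0 TPM for P. vachelli and 24.3, 21.3 and 11.4 TPM for P. fulvidraco. Creld2, another ER protein made under ER stress, averaged 4.29 ± 0.600 TPM for the hybrid, 16.9 ± 4.19 TPM for P. vachelli and 13.2 ± 6.30 TPM for P. fulvidraco (± is the SD over n = 3 libraries, here and for every level that follows).

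The disulfide isomerases among the members, which form and shuffle disulfide bonds, stood at 43.2% to 65.9% of the smaller parent. P4HB, the most abundant of these members, had 116, 122.9 and 107 TPM for the hybrid, against 201, 218 and 198 TPM for P. vachelli and 191, 210.2 and 162 TPM for P. fulvidraco. Its hybrid mean was 61.4% of the P. fulvidraco mean, and the parents were close to each other. Pdia6 stood at 43.2% and PDIA4 at 60.7% of the smaller parent, and PDIA5 at 65.9%. Completing the group were the BiP co-chaperones Dnajb11 at 47.2% and Dnajb9, whose 2 rows stood at 52.9% and 54.5%, and Jmjd8, an ER protein with a JmjC domain, at 62.8%.

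Among the 10 members for ER stress control, ER degradation and vesicle traffic, the row described as X-box-binding protein 1 was the most abundant. It had 80.6, 82.1 and 93.6 TPM for the hybrid, against 121, 168 and 182 TPM for P. vachelli and 244, 140.0 and 101 TPM for P. fulvidraco. A total level does not show how much of the transcript is spliced to the active form. HERPUD1, which organises ER-associated degradation, stood at 65.2% of the smaller parent. DERL1, a channel component of that pathway, had 13.8, 12.2 and 12.7 TPM for the hybrid, against 35.6, 32.7 and 31.7 TPM for P. vachelli and 25.0, 20.9 and 16.8 TPM for P. fulvidraco. Here the 3 lines formed separate steps.

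Rabl3, a small GTPase-like protein, stood at 52.4% of the smaller parent, tram1l1, which assists entry of chains into the ER, at 54.0%, the cargo receptor Tmed2 of transport vesicles at 62.3%, and the fusion protein BET1 of ER-to-Golgi vesicles at 64.3%. All of these 4 also met the rule when summed by symbol, but only Tmed2 had more than 1 row. The coat-recruiting GTPase ARF1, the ER fusion protein Bnip1 (described as SEC20) and the ubiquitin-conjugating enzyme UBE2G1 did not, with sums at 81.5%, 104% and 98.0% of the smaller parental mean.

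Of the 7 glycosylation members, 5 symbols met the rule after summing, and these had 1 row each. Dpagt1 starts the lipid-linked sugar chain that is later moved to new proteins, and it averaged 60.9% of the smaller parent, while ALG12, which adds a mannose to it, averaged 58.5%, and Alg5, which makes its glucose donor, 66.1%. Nus1, part of the enzyme that makes the dolichol carrier, averaged 4.26 ± 0.972 TPM for the hybrid, 13.9 ± 0.739 TPM for P. vachelli and 7.96 ± 0.702 TPM for P. fulvidraco. The ER transporter slc35b1 stood at 53.3%. B4GALT3 and UGP2, a galactosyltransferase and the enzyme that makes UDP-glucose, had member rows at 65.3% each but summed to 101% and 89.3%.

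Ribosome biogenesis with RNA polymerase I was the largest named role group, with 22 members and 22 symbols, of which 20 met the rule after summing. Nop10, a core subunit of the H/ACA particles that guide pseudouridine formation in ribosomal RNA, had 65.4, 50.6 and 66.4 TPM for the hybrid, against 134, 125 and 142 TPM for P. vachelli and 116, 145 and 105 TPM for P. fulvidraco. Its hybrid level was about even between libraries and at 49.9% of the smaller parent. DKC1, the pseudouridine synthase of the same particle, had 16.9, 16.7 and 22.1 TPM for the hybrid, against 35.7, 23.3 and 31.3 TPM for P. vachelli and 59.7, 57.3 and 37.4 TPM for P. fulvidraco. P. vachelli 2 was the parental library nearest to the hybrid.

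Fbl, the fibrillarin that methylates ribosomal RNA, had 16.6, 14.9 and 18.1 TPM for the hybrid, against 31.8, 19.5 and 26.9 TPM for P. vachelli and 36.4, 33.7 and 26.1 TPM for P. fulvidraco. Its gap to P. vachelli 2 was small. NOP58, a partner of fibrillarin, stood at 61.0% of the smaller parent, and ruvbl1, an ATPase that helps to assemble such particles, at 59.8%. For the complexes that cut the precursor of the small subunit, Imp4 stood at 44.2%, UTP4 at 50.8%, WDR43 at 56.8% and UTP14A at 60.7%. For later steps of the small subunit, Ak6 stood at 53.3%, tsr1 at 54.1% and Nob1, the nuclease of the last cut, at 60.5%.

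For the large subunit, nip7 stood at 50.0% of the smaller parent, the helicase DDX27 at 50.4%, the nucleolar GTPase gnl3 at 54.7%, RPF2 (described as brix domain protein) at 55.7%, Rbm28 at 64.9% and nop16 at 65.5%. The RNA polymerase I subunits twistnb (described as RPA43) and POLR1E stood at 53.8% and 59.7%. The nucleolar proteins nifk and DNTTIP2 stood at 54.7% and 61.7%. Only UTP14A, tsr1 and Rbm28 of this group had more than 1 row. After summing, UTP14A met the rule, and tsr1 and Rbm28 no longer did.

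**Figure D2:**
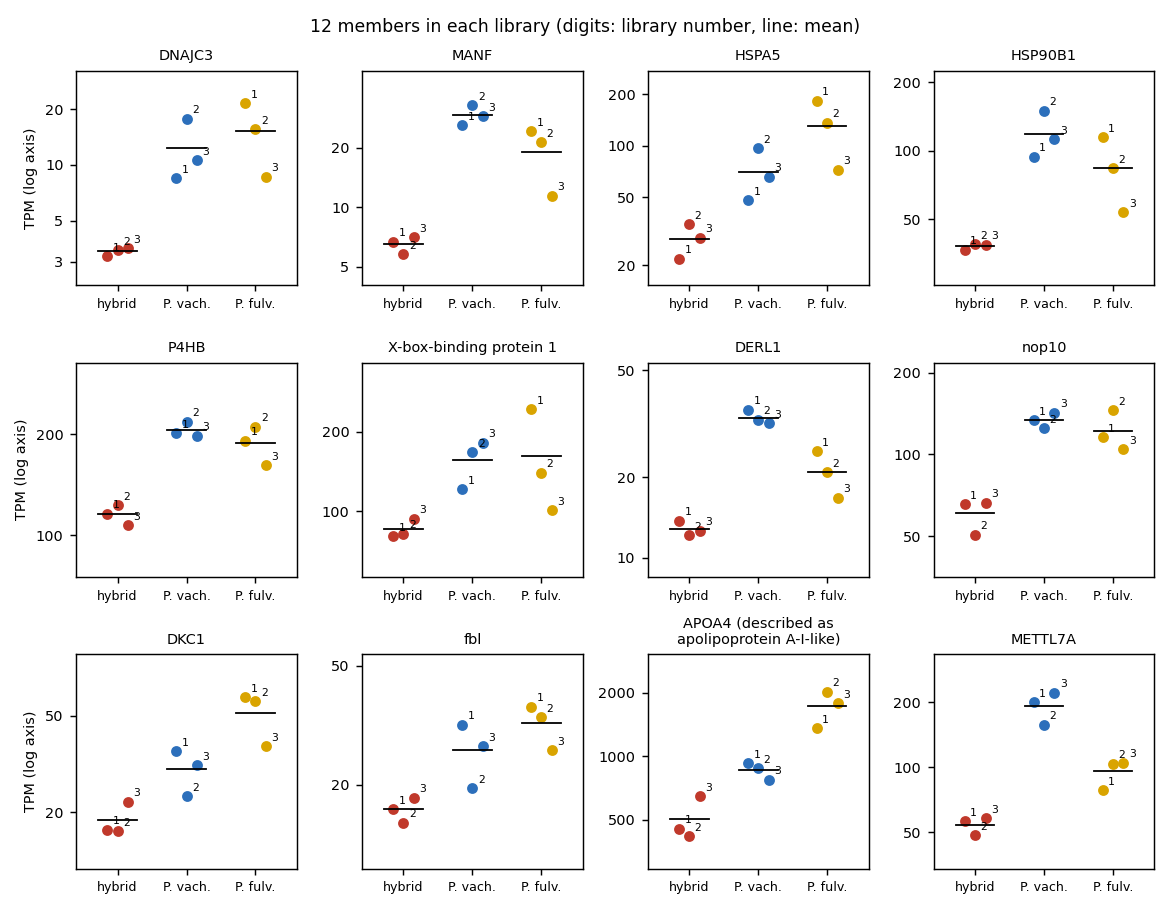
TPM of 12 members on a log axis, with 1 point per library (digit: library number) and a line at the group mean; hybrid, P. vachelli and P. fulvidraco stand from left to right. P. vachelli 2 is the highest P. vachelli point for DNAJC3, HSPA5 and HSP90B1 and the lowest for nop10, DKC1 and fbl.

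The chaperones outside the ER made up 6 members. HSP90AA1, the inducible cytosolic Hsp90, stood at 43.4% of the smaller parent, HSPD1, the mitochondrial chaperonin, at 50.9%, the proteasome assembly factor Psmg3 at 54.5%, the Hsp90 co-chaperone Ttc4 at 63.5%, and CCT5, a subunit of the cytosolic chaperonin, at 66.5%. HSPA4, an Hsp110 nucleotide exchange factor, had a member row at 46.2%, but its symbol summed to 20.5 ± 2.10 TPM for the hybrid, 23.9 ± 2.95 TPM for P. vachelli and 33.9 ± 1.93 TPM for P. fulvidraco, so it did not meet the rule.

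The 13 mitochondrial members spanned several functions and 11 of 13 symbols met the rule after summing. Of these 11, only zgc:66022 had more than 1 row. MTHFD2, a folate enzyme of mitochondrial one-carbon metabolism, had 2.23, 1.76 and 2.33 TPM for the hybrid, against 6.39, 7.12 and 4.63 TPM for P. vachelli and 9.60, 8.93 and 2.58 TPM for P. fulvidraco. P. fulvidraco 3 was close to the hybrid and the gap rested on 0.25 TPM there. Slc25a38a, the glycine carrier used for heme synthesis, stood at 41.5% of the smaller parent, slc25a48, another mitochondrial carrier, at 45.2%, and atad3, an ATPase of the inner membrane, at 48.5%. TRNT1, which adds the CCA end to tRNA, stood at 53.5%, the fission factor listed as zgc:66022 at 60.5%, acylglycerol kinase (agk) at 63.2%, Taco1, a translational activator of a respiratory subunit, at 63.4%, C1QBP, a matrix protein, at 63.7%, and sulfite oxidase (SUOX) at 64.5%. The rows of ucp2 (described as uncoupling protein 1) and of the proline-synthesis enzyme ALDH18A1 stood at 50.2% and 65.5%. Their symbols summed to 68.0% and 67.3%, past the threshold. The ALDH18A1 sum stayed below both parents without overlap, while the ucp2 sum overlapped a parent. Most of the ucp2 sum came from a row described as uncoupling protein 2.

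The 9 members grouped under RNA handling and translation included both subunits of the translation termination factor. Gspt1, the GTPase subunit, stood at 59.6% of the smaller parent and met the rule as a sum at 66.3%. Etf1, which reads the stop codon, stood at 60.2% and did not, at 78.0%. The arginine methyltransferase prmt1 had 8.84, 5.91 and 10.99 TPM for the hybrid, against 20.1, 11.6 and 15.8 TPM for P. vachelli and 38.9, 20.3 and 21.1 TPM for P. fulvidraco. The highest hybrid library was 0.61 TPM under the lowest P. vachelli library. Of the remaining members, prkrip1, aasdhppt and GPKOW met the rule as sums, whereas Syncrip, TRMT10A and Elavl1 had sums at 69.9%, 75.3% and 106%. Aasdhppt was counted in this group, although it is described as a phosphopantetheinyl transferase and not as an RNA or translation factor.

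The 8 members of liver metabolism and plasma proteins had the highest smaller parental mean by group median, at 107.5 TPM. The APOA4 row, described as apolipoprotein A-I-like, A-I being a carrier of blood lipids, had 453, 419 and 645 TPM for the hybrid, against 928, 878 and 772 TPM for P. vachelli and 1352, 2022 and 1785 TPM for P. fulvidraco. The 3 lines did not overlap. AGXT, the aminotransferase that removes glyoxylate, had a member row with 282, 242 and 226 TPM for the hybrid, against 472, 424 and 496 TPM for P. vachelli and 322, 606 and 763 TPM for P. fulvidraco. P. fulvidraco 1 was nearest to the hybrid. The 4 AGXT rows summed to 1251 ± 59.6 TPM for the hybrid, 1498 ± 34.3 TPM for P. vachelli and 2266 ± 658 TPM for P. fulvidraco, which is 83.5% of the smaller parent and does not meet the rule.

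SRD5A2, a steroid 5-alpha-reductase, had 175, 139 and 162 TPM for the hybrid, against 399, 387 and 482 TPM for P. vachelli and 196, 234 and 291 TPM for P. fulvidraco. METTL7A, a methyltransferase of lipid droplets and the ER, had 56.3, 48.5 and 58.0 TPM for the hybrid, against 200, 157 and 221 TPM for P. vachelli and 78.1, 104 and 105 TPM for P. fulvidraco. In both, P. vachelli was far above the other lines. A row described as fibrinogen alpha chain-like, the chain being part of a clotting protein, stood at 57.4% of the smaller parent, and L-xylulose reductase (DCXR) at 45.7%.

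Cyp27a1, a bile acid enzyme, had a member row at 58.9% of the smaller parent, yet its 4 rows summed to 245 ± 16.6 TPM for the hybrid, 376 ± 35.3 TPM for P. vachelli and 133 ± 14.0 TPM for P. fulvidraco, so that the summed hybrid lay between the parents. The row named F9 was described as a venom prothrombin activator, and other rows with that name were described as coagulation factor IX and as complement C1r, so its sum at 90.2% mixes different proteins.

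The remaining 23 members had other or unknown functions, and the rows farthest below the parents were among them. PRG4, the lubricating glycoprotein proteoglycan 4, had 2 member rows. The higher of them had 5.64, 10.4 and 8.99 TPM for the hybrid, against 18.4, 56.7 and 39.0 TPM for P. vachelli and 42.8, 28.9 and 53.2 TPM for P. fulvidraco. Summed, PRG4 stood at 11.8 ± 3.38 TPM for the hybrid, 56.7 ± 27.8 TPM for P. vachelli and 62.5 ± 17.9 TPM for P. fulvidraco, or 20.7% of the smaller parent. The parental spread was wide, and no parental library reached down to the hybrid, as the rule required of the member rows.

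HPSE, the heparanase that cuts heparan sulfate, averaged 4.91 ± 0.634 TPM for the hybrid, 14.3 ± 2.38 TPM for P. vachelli and 14.2 ± 2.46 TPM for P. fulvidraco, and met the rule as a sum at 38.8%. The row Ppargc1a, a coactivator of mitochondrial genes (described as a related protein of that family), stood at 29.8%. Its symbol stood at 45.2% as the sum of 6 rows, which mix the related protein with rows described as coactivator 1-alpha. EPS8L3, an actin regulator, stood at 36.5%, a row described as like tripartite motif protein TRIM16 at 39.5%, an uncharacterized protein at 37.3%, and the amino acid transporter row Slc7a7 at 43.3%. Further members were ccdc43, Ptpn23, DCUN1D5, EAF2, CHP1, a sodium pump subunit (atnb233), rows described as CD86-like, as a transposase, as an ORF2-encoded protein and as a C2orf16 homolog, and another uncharacterized protein, at 49.2% to 66.0%. The member rows of the chromatin remodeller Smarcc1 and of FOXK2 did not hold as sums, at 76.9% and 98.1%. Neither did those of VCAM1 (described as an Fc receptor) and COL6A3, at 129% and 134%. The VCAM1 sum adds a row described as vascular cell adhesion protein 1, and the COL6A3 sum a row described as collagen alpha-6(VI). Summed by its own description, the VCAM1 member met the rule and the COL6A3 member did not. Slc7a7, Ptpn23 and CHP1 met the rule summed by symbol but not by description. Cyp27a1, ucp2 and F9 met it by description but not by symbol.

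The sum over all rows of a symbol was a check of whether a row was low because the gene was split between rows. Some symbols, such as F9 and VCAM1, mix rows described as different proteins, and for them the sum cannot check this. Of the 111 members, 102 carried a symbol and made 100 different symbols, 65 with 1 row and 35 with more. After summing, 79 of the 100 met the rule and 21 did not. The 65 with 1 row could not fail, since their sum is the row itself. Of the 35 with more rows 14 met the rule, and all 21 that did not were among these 35. Of these 21, 6 stayed below both parents without overlap but by less than 1.5-fold, 15 overlapped a parent, and in 6 of the 21 the hybrid sum was above the smaller parental mean. Of 9 members without a symbol, 4 met the rule when rows of the same description were summed. Those that did not were the rows described as like TRIM16, as an ORF2-encoded protein, as a transposase, as CD86-like and as fibrinogen alpha chain-like. Among 5026 symbols at the same level, 89 met the rule as sums, 10 of them with no member row, such as AHSA1, an Hsp90 activator, with 2.65 TPM for the hybrid, 11.9 TPM for P. vachelli and 5.60 TPM for P. fulvidraco on average.

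**Figure D3:**
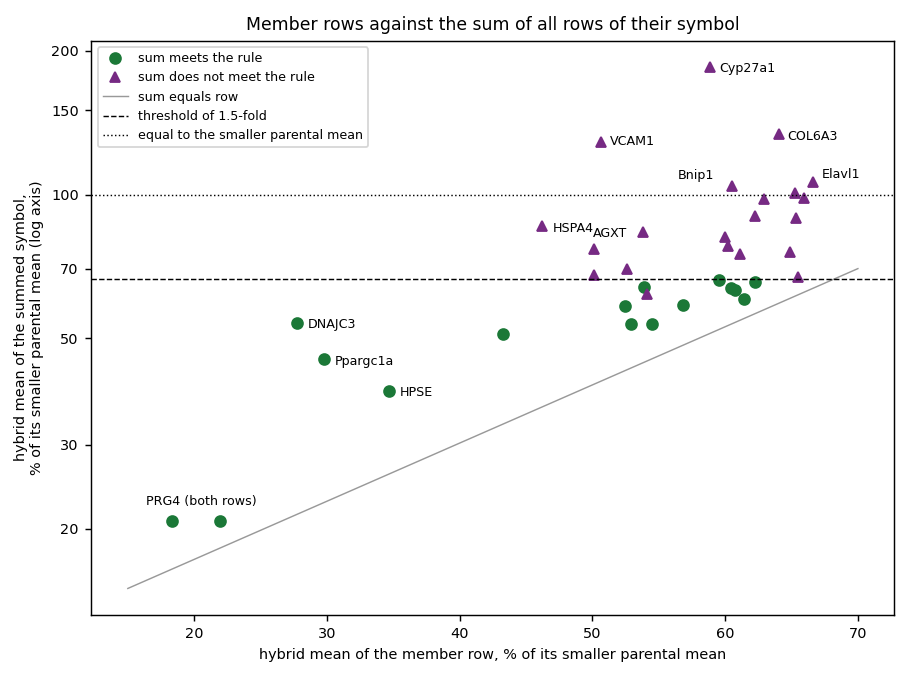
Each point is a member row whose symbol has several rows, with the hybrid mean as a percentage of the smaller parental mean for that row (x) and for the sum of the symbol (y, log axis). Circles meet the rule as sums and triangles do not; Cyp27a1, COL6A3, VCAM1, Elavl1, Bnip1 and B4GALT3 lie above 100%.

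The rows of member symbols that the rule did not choose could be tested. Of 50 such rows, limma on log2(TPM + 1) called 3 lower than both parents (6.0%, against 0.636% of all rows) and 0 higher than both (1 at unadjusted p under 0.05), and the medians were -0.34 from P. vachelli and -0.16 from P. fulvidraco. With both parental means at 5 TPM or more, it was 3 of 27 (11.1%, against 3.26%). The shares of 0.636% and 3.26% include the members, 95 of which were called, so these comparisons are not like with like. The second Tmed2 row fell to 29.5 TPM for the hybrid, against 43.3 TPM for P. vachelli (-0.54 ± 0.13 standard error, adjusted p = 0.0147) and 41.6 TPM for P. fulvidraco (-0.48 ± 0.13, adjusted p = 0.0314). The others were rows of UGP2 and ALDH18A1. The ALDH18A1 row came from the same cluster of the assembly as its member row, so it is not independent of that row. Leaving out hybrid 1, hybrid 2 or P. fulvidraco 2 left 0 of these calls.

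Between the parents, 21 members differed by limma, 12 higher and 9 lower in P. vachelli than in P. fulvidraco, or 18.9% of 111. Of the described rows at 5 TPM or more, 53.7% differed between the parents. The median absolute difference was 0.22 in the members and 0.45 in those rows, on the log2(TPM + 1) scale. The rule used the levels of both parents, so this share is a description. In 82 members (73.9%) the parental libraries overlapped each other, against 36.9% of the described rows at 5 TPM or more.

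The clearest parental differences were in members of unlike function. APOA4 was lower in P. vachelli than in P. fulvidraco by limma (-0.98 ± 0.20, adjusted p = 0.00286), while METTL7A (1.0 ± 0.16, adjusted p = 0.00084) and SRD5A2 (0.82 ± 0.16, adjusted p = 0.00239) were higher. DERL1 (0.66 ± 0.14, adjusted p = 0.00361), nus1 (0.73 ± 0.15, adjusted p = 0.00335) and atad3 (0.95 ± 0.21, adjusted p = 0.00448) were also higher in P. vachelli by limma. Tsr1 (-0.95 ± 0.23, limma adjusted p = 0.00752) and the Cyp27a1 member row (-0.35 ± 0.08, limma adjusted p = 0.00731) were lower. The sum over the Cyp27a1 rows went the other way, with 376 TPM for P. vachelli and 133 TPM for P. fulvidraco. In the row of Ptpn23, a phosphatase-like protein of endosomal sorting, the hybrid had 3.15, 4.36 and 3.70 TPM, against 26.1, 19.5 and 16.7 TPM for P. vachelli and 5.74, 8.91 and 6.16 TPM for P. fulvidraco. P. vachelli stood above P. fulvidraco (1.45 ± 0.21, limma adjusted p = 0.000469), and the hybrid nearer to P. fulvidraco. The row described as an ORF2-encoded protein was the member with the largest parental difference, at 1.86, 3.15 and 4.11 TPM for the hybrid, 48.8, 29.2 and 32.7 TPM for P. vachelli and 6.40, 6.10 and 6.03 TPM for P. fulvidraco. Its difference between the parents was 2.37 ± 0.24 (limma adjusted p = 7.4e-05). The 63 rows of that description did not meet the rule when summed. The calls named in this comparison held with each single library left out. The count of 21 fell to 11 without P. fulvidraco 2 and to 12 without P. vachelli 2.

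ER folding and ribosome biogenesis members differed in their order of libraries in P. vachelli and had a similar order in P. fulvidraco. The ER folding members were highest in P. vachelli 2 in 10 of 13 cases and in P. fulvidraco 1 in 12 of 13, against 27.6% and 31% of the described rows at 5 TPM or more. Ribosome biogenesis members were instead lowest in P. vachelli 2 in 21 of 22 cases (41.1% of described rows). In P. fulvidraco the ribosome biogenesis members were highest in P. fulvidraco 1 in 16 of 22 cases, and both groups had the same lowest library, P. fulvidraco 3, in 12 of 13 and 21 of 22 cases (30.5% of described rows). The members of liver metabolism were lowest in P. fulvidraco 1 in 6 of 8 (44.7% of described rows). P. fulvidraco 1, high for ER folding, was also the library with the most vitellogenin, and P. fulvidraco 3 had the least of that line; the part of this in the results was not tested.

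As medians over the 13 ER folding members, each set to its smaller parental mean as 100%, the libraries stood at 45.9%, 49.6% and 48.7% in the hybrid, 105%, 140.4% and 108% in P. vachelli and 128%, 105% and 77.7% in P. fulvidraco. For ribosome biogenesis the medians were 54.3%, 52.2% and 60.6% in the hybrid, 115%, 84.3% and 107% in P. vachelli and 129%, 118% and 96.7% in P. fulvidraco. Against P. fulvidraco 3 alone, that is without the vitellogenin-rich libraries 1 and 2, 8 of 13 ER folding members, 16 of 22 ribosome biogenesis members and 81 of all 111 met the rule. The liver metabolism members met it in 8 of 8.

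**Figure D4:**
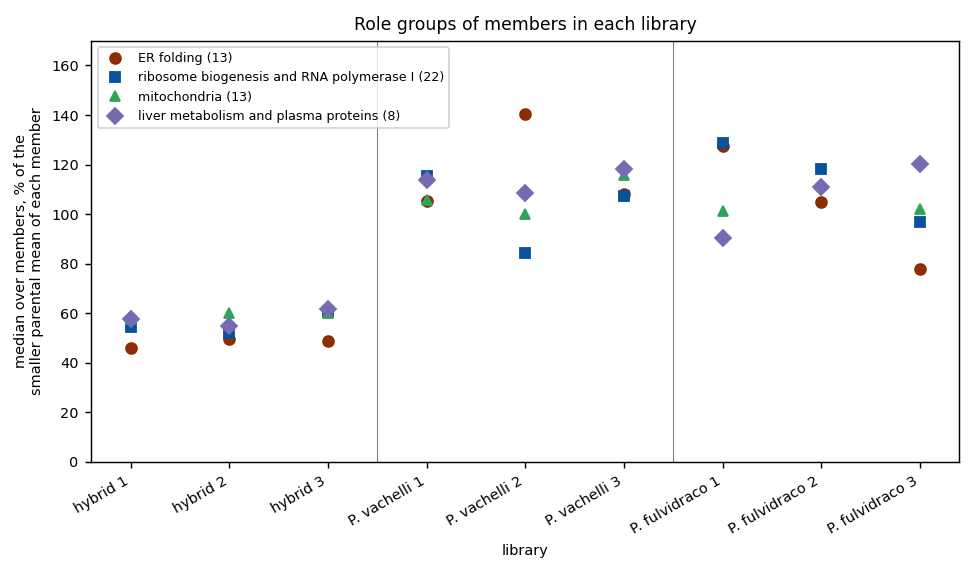
Median level of the members of 4 role groups in each library, as a percentage of the smaller parental mean of each member. ER folding is highest in P. vachelli 2 (140.4%) and lowest among parental libraries in P. fulvidraco 3 (77.7%), while ribosome biogenesis has its lowest parental median in P. vachelli 2 (84.3%).

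To place the members in their pathways, all symbols of 35 function lists were tested as sums with limma, adjusted over 10815 symbols. Lower than both parents were 2.01% of all symbols and 69 of 1281 list symbols (5.39%), and 16 list symbols were higher than both. Without the member symbols, 36 of 1237 (2.91%) were lower than both. The list counts include member symbols unless stated otherwise, and so do all list counts with libraries left out or with other settings. The 2.01% includes the member symbols and symbols down to 1 TPM. No share without members or at 5 TPM or more was computed for all symbols. It is therefore not a like baseline for the lists. With P. fulvidraco 3 as the only P. fulvidraco library, 26 list symbols were lower than both. In that fit the lone library is assumed to vary like those of the other lines, and fewer libraries alone make calls harder. Against P. fulvidraco 3 alone the differences were -0.96 for HYOU1, 1.24 for PDIA2, -0.57 for SEC13, -0.37 for SEC61G, -0.46 for TMED10 and -0.31 for FGG, all past the 0.05 threshold with all libraries and short of it here (limma adjusted p of 0.0741 to 0.103).

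For ER chaperones and disulfide isomerases, 11 of 39 symbols were lower than both parents and 1 was higher, with median differences of -0.34 from P. vachelli and -0.32 from P. fulvidraco. Of the 11, 10 were member symbols. Among the 28 that were not, the medians were -0.13 and -0.03, and only HYOU1, a large ER Hsp70 relative, was lower than both. HYOU1 averaged 1.43 ± 0.399 TPM for the hybrid, 3.76 ± 0.945 TPM for P. vachelli (-0.96 ± 0.24, limma adjusted p = 0.0152) and 5.55 ± 1.86 TPM for P. fulvidraco (-1.40 ± 0.24, limma adjusted p = 0.00379). Without P. vachelli 2 its difference from P. vachelli missed the threshold (adjusted p = 0.0555), and the list count was then 7. Without P. fulvidraco 1 and 2 the list count was 2. Of 2 abundant list symbols, neither was called lower than both. Calreticulin (CALR) had 513 ± 28.9 TPM for the hybrid, 654 ± 84.9 TPM for P. vachelli and 647 ± 110.0 TPM for P. fulvidraco, with every hybrid library below every parental one but limma adjusted p of 0.0815 and 0.107. The isomerase PDIA3 had 330 ± 25.9, 489 ± 17.2 and 319 ± 19.9 TPM in the same order of lines. With its highest row in place of the sum, CALR was higher than P. vachelli (0.46, limma adjusted p = 0.0194) and lower than P. fulvidraco (-0.57, limma adjusted p = 0.00993).

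The symbol that was higher than both was PDIA2, an isomerase known from the pancreas in mammals. It stood at 10.3 ± 2.09 TPM for the hybrid, 1.59 ± 1.01 TPM for P. vachelli (2.17 ± 0.26, limma adjusted p = 0.000419) and 3.31 ± 0.435 TPM for P. fulvidraco (1.38 ± 0.26, limma adjusted p = 0.00581). Acinar marker sums were also higher in the hybrid, as given above, with 1 of 11 tested acinar symbols called higher than both parents, and their part in the PDIA2 level was not tested.

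Of the regulators of the unfolded protein and amino acid responses, 2 of 25 symbols were lower than both parents, and 0 without P. vachelli 1, P. vachelli 2, hybrid 1 or hybrid 2. They were the asparagine synthetase ASNS and CREB3L3A, a membrane-bound factor of the liver. CREB3L3A stood at 34.9 ± 4.001 TPM for the hybrid, 49.3 ± 5.54 TPM for P. vachelli (-0.48 ± 0.15, limma adjusted p = 0.0379) and 57.0 ± 10.8 TPM for P. fulvidraco (-0.68 ± 0.15, limma adjusted p = 0.0115). ATF6, ATF4 and EIF2AK3 were not called lower than both. ATF6 stood at 7.30 ± 0.724 TPM for the hybrid, 7.24 ± 0.227 TPM for P. vachelli and 14.9 ± 0.485 TPM for P. fulvidraco, and was lower than P. fulvidraco alone (-0.94 ± 0.10, limma adjusted p = 0.000487). ATF4 likewise stood at 157 ± 9.88 TPM for the hybrid, 138 ± 3.54 TPM for P. vachelli and 224 ± 31.7 TPM for P. fulvidraco (-0.50 ± 0.11 from P. fulvidraco, limma adjusted p = 0.0107). The sensor EIF2AK3 was lower than P. vachelli alone, at 11.4 ± 0.891 TPM for the hybrid, 24.8 ± 6.19 TPM for P. vachelli (-1.03 ± 0.17, limma adjusted p = 0.00261) and 12.5 ± 1.24 TPM for P. fulvidraco. Its highest row, taken in place of the sum, was higher than P. fulvidraco (2.10, limma adjusted p = 0.000388).

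Vesicle transport between the ER and the Golgi (COPII and COPI) had 9 of 46 symbols lower than both parents and 0 higher (also 0 at unadjusted p under 0.05), with medians of -0.42 from P. vachelli and -0.39 from P. fulvidraco. Of the 43 that were not member symbols, 6 were lower (14.0%), and their medians were -0.41 and -0.34. TMED10, a partner of Tmed2 in cargo sorting, stood at 111 ± 6.39 TPM for the hybrid, 159 ± 15.2 TPM for P. vachelli (-0.51 ± 0.11, limma adjusted p = 0.00808) and 163 ± 20.1 TPM for P. fulvidraco (-0.55 ± 0.11, limma adjusted p = 0.00794). SEC13, a coat subunit, was lower by -0.48 ± 0.11 (limma adjusted p = 0.0105) and -0.61 ± 0.11 (limma adjusted p = 0.00479). In the list of ER translocation, signal peptidase and glycosyl transfer, 2 of 35 symbols were lower than both parents, both from the translocation channel. SEC61B was lower than both, at 201 ± 4.13 TPM for the hybrid, 265 ± 7.45 TPM for P. vachelli (-0.40 ± 0.08, limma adjusted p = 0.00741) and 264 ± 25.6 TPM for P. fulvidraco (-0.38 ± 0.08, limma adjusted p = 0.0112), and so was SEC61G. With 1 library left out the vesicle count ran between 6 and 12, lowest without P. vachelli 1, P. vachelli 3 or hybrid 1, and was 2 without P. fulvidraco 1 and 2.

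Ribosome biogenesis had 14 of 38 symbols lower than both parents and 0 higher (also 0 at unadjusted p under 0.05), with medians of -0.51 from P. vachelli and -0.85 from P. fulvidraco. Of the 27 that were not member symbols, 5 were lower (18.5%), with medians of -0.45 and -0.65. The helicase DDX21, which acts in ribosomal RNA transcription and processing, stood at 199 ± 19.2 TPM for the hybrid, 282 ± 17.2 TPM for P. vachelli (-0.50 ± 0.10, limma adjusted p = 0.00539) and 314 ± 27.3 TPM for P. fulvidraco (-0.65 ± 0.10, limma adjusted p = 0.00233). The other 4 were RRS1, UTP6, UTP18 and WDR75. The count was 4 without hybrid 1 or hybrid 2, 5 without P. vachelli 1, P. vachelli 3 or P. fulvidraco 2, 18 without P. fulvidraco 3, 7 with the replicate number as a block and 3 without P. fulvidraco 1 and 2.

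Ribosomal proteins are what these factors assemble with ribosomal RNA. Of 78 cytosolic ribosomal protein symbols, limma called 0 lower than both parents and 0 higher (0 and 0 at unadjusted p under 0.05), with medians of 0.16 from P. vachelli and -0.02 from P. fulvidraco. It called 0 of 35 proteasome symbols lower (0 unadjusted), 0 of 22 aminoacyl-tRNA synthetases (3 unadjusted), and 0 of 66 nuclear genes of oxidative phosphorylation (0 unadjusted). The synthetase medians were -0.08 from P. vachelli and -0.67 from P. fulvidraco, with 14 of 22 lower than P. fulvidraco and 0 higher. For oxidative phosphorylation they were 0.27 and -0.13. Nucleotide sugar and protein glycosylation had 4 of 47 symbols lower than both, and 0 of the 42 that were not member symbols.

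Cytosolic heat shock proteins and chaperonin subunits had 8 of 40 symbols lower than both parents, with medians of -0.34 and -0.37, and 6 of 36 without the member symbols (16.7%). The count was 1 without hybrid 1, hybrid 2 or P. fulvidraco 2, and 3 without P. fulvidraco 1 and 2. Among clotting genes, 3 of 38 were lower than both, and they were the 3 fibrinogen chains FGA, FGB and FGG. FGB stood at 7088 ± 221 TPM for the hybrid, 9861 ± 759 TPM for P. vachelli (-0.47 ± 0.09, limma adjusted p = 0.00534) and 10680 ± 1160 TPM for P. fulvidraco (-0.59 ± 0.09, limma adjusted p = 0.00287). FGG differed by -0.43 ± 0.07 (limma adjusted p = 0.00241) and -0.32 ± 0.07 (limma adjusted p = 0.0125, and 0.0729 with quantile normalization). Without P. fulvidraco 1 and 2 the count of clotting genes was 1.

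**Figure D5:**
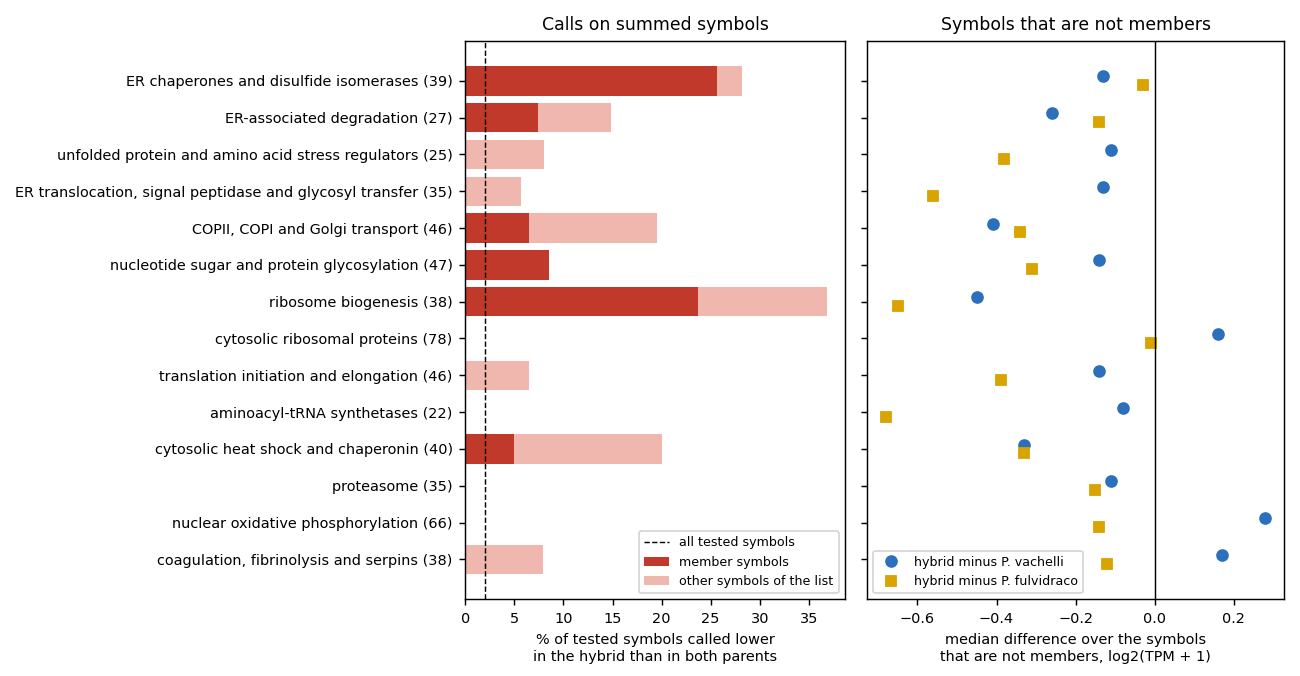
The function lists shown (number of symbols in brackets) were picked from the 35 tested, and the lists left out had 0 to 2 symbols lower than both parents each. Left, the percentage of tested symbols in each list shown that limma called lower in the hybrid than in both parents, split into member symbols and others. The broken line is at the 2.01% of all tested symbols, members included. Right, the median log2(TPM + 1) difference of the list symbols that are not members; ribosome biogenesis stands at -0.45 and -0.65, cytosolic ribosomal proteins at 0.16 and -0.01.

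At the edge of the rule, the 3 members just inside the 1.5-fold threshold were Alg5 at 66.1%, CCT5 at 66.5% and Elavl1 at 66.6% of the smaller parent. The 3 rows just outside were gskip at 66.7%, ldhba, a lactate dehydrogenase, at 67.0% and uck2b, a uridine-cytidine kinase, at 67.0%. A further 360 described rows lay below both parents without overlap at more than the threshold, out of 471 in all. Alg5 also sat at the edge of the overlap condition, with 28.2 TPM in its highest hybrid library and 28.4 TPM for P. fulvidraco 3.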

How the data were processed

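The deposited table held TPM per assembled gene of a de novo assembly, with a protein description and a symbol for some rows. The authors' TPM were used as deposited. Cutadapt and FastQC are named in the submitters' processing notes, and the sources used here do not give the assembler settings or the quantifier. Depth and counting error behind a value are unknown, since TPM carry neither. An assembly shared by 2 species and their hybrid can split 1 gene over several rows, so each symbol was also summed, ignoring case. Groups follow the sample titles.

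The members and all gene lists were chosen with earlier results of these data known. Limma 3.58.1 (R 4.3.3) was fitted once to the 3 groups on log2(TPM + 1) with a mean-variance trend, over 51225 rows or 10815 symbol sums at 1 TPM or more in at least 3 of 9 libraries, with 6 residual degrees of freedom and Benjamini-Hochberg adjustment at 0.05. A call lower than both parents needed both contrasts. The fit was also run on simulated data with independent noise, for hybrid against P. vachelli only. That run does not test the call lower than both parents or the counting error behind TPM. Python 3.11.15 with pandas 2.3.3 and numpy 2.4.6 computed the rest. Member symbols matched the RefSeq gene table (assembly HZAU_Pvac_v1) in 73 of 100 cases, and no sequence was used.

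Genes named by rule were the 12 members lowest against the smaller parent, the 10 most abundant, 3 either side of the fold threshold, up to 4 per function list with at least 2 members, and the 5 most abundant symbols that met or did not meet the rule as sums. Other members are named to account for the rest, and were chosen after their values were seen; 1 member is counted but not reported by name here. Alternatives were the floor, the fold, scaling, pseudocount, filter, trend, replicate block and leaving out libraries. Leaving out P. fulvidraco 1 and 2 together, using undescribed rows, and rescaling without acinar symbols were added after seeing the data.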

Additional observations from a re-analysis of the deposited data

How the results depend on the processing

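The 111 rows that met the rule became 255 with a floor of 1 TPM, 64 with a floor of 10 TPM and 27 with a fold of 2. With 1 library left out the count was 111 to 215 (215 without hybrid 3), and these counts include rows that are not members. Of the 111 members themselves, 96 (without hybrid 2) to 108 (without hybrid 3 or P. vachelli 2) still met the rule. With quantile normalization 91 of them did. The 79 symbols that met it as sums became 52 with the floor of 10 TPM and 20 with the fold of 2, and 67 to 81 with 1 library left out. The 326 rows that limma called lower than both parents became 512 with quantile normalization and 86 without P. fulvidraco 1 and 2, with 172 to 402 when 1 library was left out. The 21 members that differed between the parents became 11 to 23 with 1 library left out. The 3 other rows of member symbols became 0 without the trend, 1 without P. fulvidraco 1 and 2, and 0 to 3 with 1 library left out. The 69 list symbols became 26 without P. fulvidraco 1 and 2 and 33 to 80 with 1 library left out. The cause of these changes was not tested, and where libraries were left out the fit also had fewer of them. Same-numbered libraries of different lines correlated by -0.112 to 0.014, so the numbers were not taken as pairs. With the replicate block the counts were 245 rows, 18 members between the parents, 0 other rows of member symbols and 54 list symbols. For named genes, 690 of 710 gene and setting pairs kept direction and call, 12 lost the call, 3 gained it and 5 changed sign. With the highest row per symbol CALR stood at 0.46 from P. vachelli (limma adjusted p = 0.0194) and EIF2AK3 at 2.10 from P. fulvidraco (limma adjusted p = 0.000388). Both were called higher in the hybrid there, against the sign of their sums. With 1 library left out PDIA3 ran between -0.01 (without hybrid 1) and 0.1 from P. fulvidraco, and ATF6 between -0.06 (without hybrid 1) and 0.05 from P. vachelli, with -0.01 without P. vachelli 2. Between the parents, SRD5A2, Cyp27a1 and tsr1 missed the threshold without P. fulvidraco 1 and 2 (limma adjusted p = 0.0548, 0.107 and 0.185), and Cyp27a1 also without the trend (adjusted p = 0.054).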
